A study of Apostichopus japonicus with 9 samples.

Results

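The 9 intestinal libraries of the sea cucumber Apostichopus japonicus held 27269 gene models with assigned reads. The 200 transcripts examined here varied least among the genes that passed the limits on abundance given below. They were picked for steadiness. Estimated counts were divided by a median-of-ratios size factor per library, computed over the 12361 genes above 0 in all 9 libraries, and the result is called the scaled count here. Of the 1158 genes with a scaled count of at least 100 in every library, 89 belonged to the 100 transcripts with the highest mean share of the library total and were set aside, which left 1069 eligible genes. The 200 with the smallest coefficient of variation (CV, the SD of the scaled count over 9 libraries as a percent of its mean) are described below and are called the stable transcripts. Because the counts of these same libraries chose them, their steadiness is a description and carries no test, and no list of this kind is a set of proven reference genes.

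Sea cucumbers were kept at 15 °C and then held in control sea water (SD30, labelled salinity 30), diluted sea water (SD20, labelled 20 and called low salinity here) or concentrated sea water (SD40, labelled 40 and called high salinity here), with 20 animals in each group and the salinity of the latter groups moved in steps of 2.5 per 6 h. Each library was made from intestinal poly(A) RNA of 3 animals pooled in equal amounts, and each group has 3 libraries, whose values are listed below in the order of replicates 1 to 3. The sources used here do not state the time at the final salinity or the animals' ages and sexes, and the labels do not say whether pools of one group shared animals or tanks, so the spread between libraries may be partly technical. Library totals lay between 2834168 and 4060892 estimated counts. SD30 replicates 1 and 2 stood apart from the other libraries, with size factors of 0.537 and 0.566 against 0.850 to 1.55 in the other 7, and the choice, ratios, counts, fits and held-out readings are also given without them.

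Transcripts that hold a constant level across treatments serve as internal references: in quantitative PCR and in sequencing, the level of a gene of interest is read relative to them, and a reference that itself moves with the treatment shifts every ratio. Genes of protein synthesis, the cytoskeleton, glycolysis and ubiquitin turnover are customary choices, although each of them moves in some tissues and conditions. Sea cucumbers, like other echinoderms, regulate the ions of their body fluid only weakly, so that gut cells meet a change of salinity nearly directly, and the gut is also a tissue whose digestive transcripts follow feeding. The gene models carry AJAP identifiers that the files pair with no name, and 0 of the 27269 identifiers were found in RefSeq's genes for this animal (assembly ASM3797524v1). Customary reference genes could therefore not be looked up among the stable transcripts, no gut, muscle or coelomocyte marker could be checked against the tissue label, and no role is given to any identifier below. As these are bulk samples, fewer cells of a type and less RNA per cell cannot be told apart.

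The stable transcripts had CVs from 10.4% to 27.3%, with a median of 22.1%. The 869 eligible transcripts that were not chosen ran from 27.4% to 185%, with a median of 43.2%. Over all 14191 genes abundant enough to be tested the median CV was 60.5%, and among the 100 most abundant transcripts it was 40.5%. The lowest CV among the tested genes was 8.08%, below that of any stable transcript, so steadier genes lay outside the eligible ones. Expressed as the ratio of the highest to the lowest of the 9 libraries, the stable transcripts ranged from 1.35 to 3.40 with a median of 1.93. This ratio was under 1.5 for 8 of the 200, under 2 for 119 and under 3 for 198. No stable transcript (0 of 200) therefore kept its highest library within 1.2-fold of its lowest.

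Counting error accounts for only part of that spread. From the counts alone, a stable transcript would have a CV of 1.76% to 9.50%, with a median of 6.30%. In variance terms counting error made up 8.27% of the total in the median stable transcript and 25.2% in the median of the 10 steadiest. No stable transcript (0 of 200) had a CV below its own counting error. With counting error taken off, the median CV was 21.3%. The counts are reads without molecular identifiers, so these figures cover counting error only. More abundant eligible genes tended to have larger CVs. Spearman's rho between CV and mean scaled count was 0.400 over the 1069 eligible genes and 0.177 over the 200, as correlations across genes, which share libraries and depth and are not independent replicates. By its construction the floor of 100 scaled counts admits a gene of low mean only if it varies little.

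**Figure D1:**
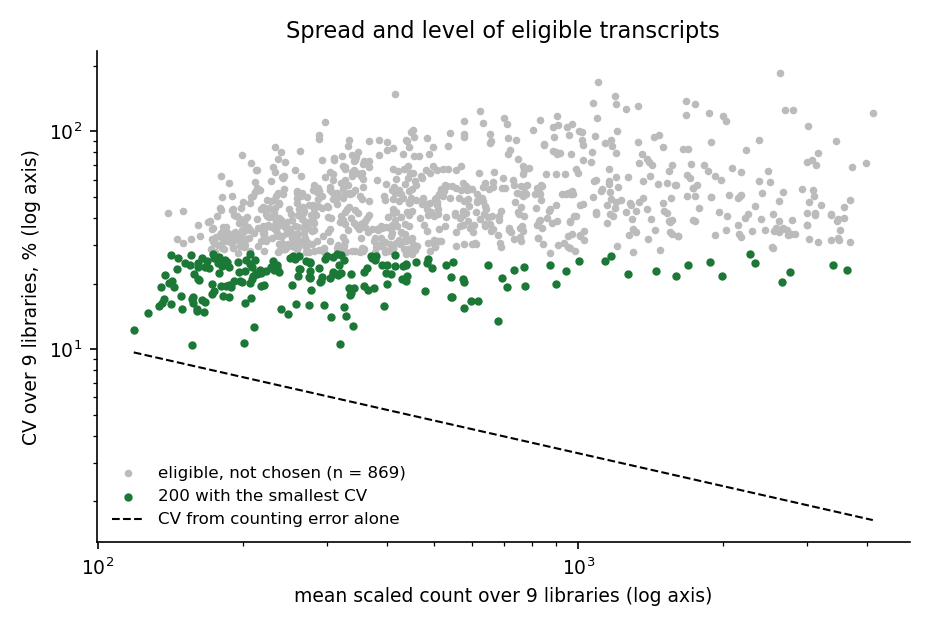
CV over the 9 libraries (%, log axis) against mean scaled count (log axis) for the 1069 eligible transcripts. Green points are the 200 stable transcripts, grey points the 869 others, and the dashed line is the CV that counting error alone would give. All green points lie above the line, and the limit between green and grey falls between 27.3% and 27.4%.

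The steadiest transcript was AJAP11296, a short gene model of 381 bases. Its scaled counts were 156, 162 and 145 at low salinity, 175, 157 and 169 in the controls and 119.8, 168 and 159 at high salinity. Its CV was 10.4%, where counting error alone would give 8.28% at this level. SD40 replicate 1 lay below the rest, and the other 8 libraries lay between 145 and 175. Without that library its CV was 5.81%, and with libraries scaled to their totals it was 31.3%. AJAP00503, of 999 bases, came next with a CV of 10.6%. It stood at 296, 308 and 283 at low salinity, 350.3, 334 and 348 in the controls and 258, 350.1 and 339.9 at high salinity. Each low-salinity value was under each control value, while SD40 held both the lowest value and one of the highest. The 3rd transcript, AJAP26887, of 2361 bases, had scaled counts of 239, 203 and 177 at low salinity, 218, 177 and 213 in the controls and 194, 211 and 179 at high salinity, a CV of 10.7% and the smallest ratio of highest to lowest library, at 1.35. Its 3 groups overlapped fully, with means of 206 ± 31.1, 203 ± 22.5 and 195 ± 16.3 (SD, n = 3 each).

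AJAP18255, of 1125 bases, was the least abundant of the 200 in scaled counts. It stood at 143, 119.8 and 120.3 at low salinity, 136, 127 and 110.4 in the controls and 106, 103 and 102 at high salinity, with a CV of 12.3% against 9.50% from counting error. All 3 SD40 libraries lay below every library of the other groups, while SD20 and SD30 overlapped. AJAP08859, of 711 bases, was at 206, 184 and 176 at low salinity, 198, 223 and 204 in the controls and 212, 229 and 266 at high salinity, a CV of 12.6%. Its SD40 libraries lay above all SD20 libraries, while SD30 overlapped both. In AJAP15886, a longer model of 3348 bases, the values were 352, 286 and 338 at low salinity, 427, 373 and 284 in the controls and 323, 344 and 336 at high salinity, and the highest and the lowest library (CV 12.7%) both came from the control group.

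AJAP07505, of 933 bases, was the most abundant of the 10 steadiest in scaled counts, with 629, 649.5 and 603 at low salinity, 742, 728 and 690.3 in the controls and 540.4, 859 and 691 at high salinity. Its CV was 13.5%. SD40 replicates 1 and 2 formed its extremes, and every control exceeded every SD20 library. For AJAP28655, of 579 bases, the scaled counts were 315, 269 and 338 at low salinity, 347, 351 and 246 in the controls and 280.3, 349 and 257 at high salinity, with a CV of 14.0% and overlap among all groups. The scaled counts of AJAP30258, of 3717 bases, were 288, 311 and 387 at low salinity, 313, 315 and 276 in the controls and 342, 306 and 419.8 at high salinity (CV 14.3%). SD40 replicate 3 and SD20 replicate 3 were its highest libraries. The last of the 10, AJAP03082, of 3156 bases, was at 291, 268 and 270.3 at low salinity, 214, 272 and 241 in the controls and 200.2, 199.8 and 285 at high salinity (CV 14.5%), lowest in SD40 replicates 1 and 2. The estimated counts of AJAP26887, AJAP07505 and AJAP28655 were not whole in every library, so their values are uncertain if near-identical copies exist.

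**Figure D2:**
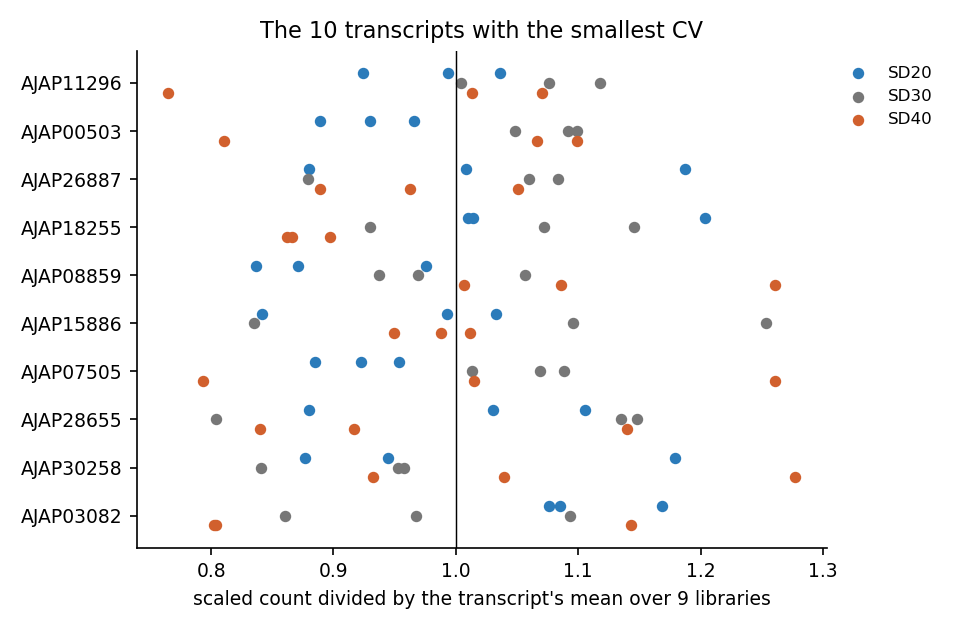
Scaled counts of the 10 transcripts with the smallest CV, each divided by its own mean over 9 libraries. Each point is 1 library, blue for SD20, grey for SD30 and orange for SD40, and the vertical line marks the mean. The libraries of the 3 groups interleave for most transcripts, and SD40 replicate 1 is the lowest library for AJAP11296, AJAP00503 and AJAP07505.

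At the other end, the limit of 200 cut through a continuous range. The last transcripts inside were AJAP30153, AJAP05080 and AJAP14187, with CVs of 27.2%, 27.2% and 27.3%. The first ones outside were AJAP07987, AJAP09595 and AJAP25810, with 27.4%, 27.4% and 27.5%. The ratio of highest to lowest library was 2.27, 2.22 and 2.45 inside and 2.51, 2.58 and 2.66 outside. Transcripts just inside and just outside the limit differed by a fraction of a percentage point in CV. The last one inside, AJAP14187, had scaled counts of 1813, 2041 and 1439 at low salinity, 2795, 2420.1 and 2388 in the controls and 1796, 2238 and 3529 at high salinity, with its highest library in SD40 and its lowest in SD20.

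The stable transcripts covered a wide range of levels per length. In the authors' FPKM (fragments scaled by gene model length and by the reads assigned in the library), their means over 9 libraries ran from 7.98 to 3479, with a median of 70.1 and the middle 50% between 37.2 and 140.2. The median was 123 FPKM in the eligible transcripts not chosen and 9.41 over all tested genes. AJAP04555, of 330 bases, was the most abundant stable transcript, at 3479 ± 887 FPKM (SD, n = 9). AJAP02242 (270 bases) and AJAP14187 (435 bases) followed at 1782 ± 584 and 1615 ± 508 FPKM, and their ranges overlapped with each other. The lowest were AJAP16239, of 5619 bases, at 7.98 ± 3.40 FPKM and AJAP13529, of 13386 bases and the longest of the 200, at 8.46 ± 2.96 FPKM (SD, n = 9 each). The shortest, AJAP04776, had 234 bases and stood at 202 ± 68.6 FPKM (SD, n = 9).

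Gene model length took no part in the choice, and the stable transcripts were of ordinary length. Their median was 1189.5 bases, with the middle 50% between 718 and 2156, against 1182 bases in the eligible transcripts not chosen and 1057 over all tested genes. Lengths were multiples of 3 for 192 of the 200, for 819 of the 869 not chosen and for 13311 of the 14191 tested genes. Whether they are coding lengths was not tested. Spearman's rho between CV and length was -0.034 over the 200 and -0.013 over the eligible genes. Estimated counts were whole in all 9 libraries for 146 of the 200 (73.0%), for 434 of the 869 eligible transcripts not chosen (49.9%) and for 6153 of the 14191 tested genes (43.4%). A value counts as whole when it has no decimals as deposited, and a gene model that shares reads with a near-identical copy could be given decimals. These shares describe the lists, and whether shared reads add to the spread was not tested.

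Together the stable transcripts made up a small and uneven part of the sequenced RNA. Their share of estimated counts was 3.20, 3.18 and 3.12% at low salinity, 1.39, 1.27 and 3.00% in the controls and 2.58, 2.62 and 3.00% at high salinity. SD30 replicates 1 and 2 had less than any other library, and the other 7 lay between 2.58% and 3.20%. In the same 2 libraries the 100 most abundant transcripts took 66.0% and 75.4% of counts, against 48.4% to 56.9% elsewhere. The part of the abundant transcripts in the low share was not tested.

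**Figure D3:**
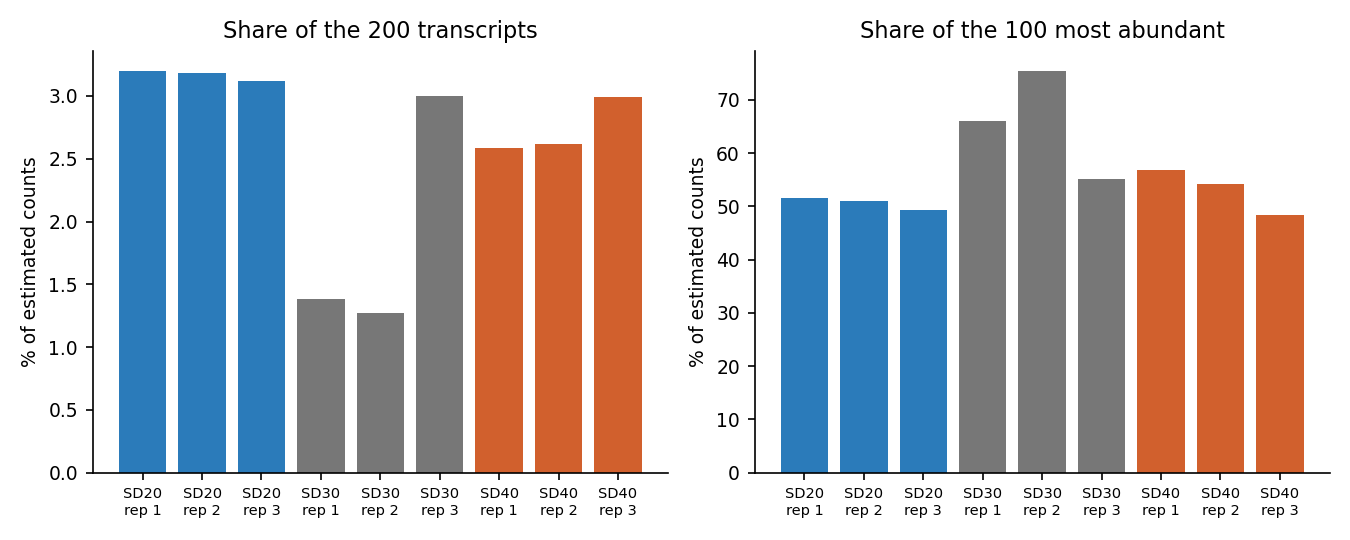
Percent of estimated counts taken by the 200 stable transcripts (left) and by the 100 most abundant transcripts (right), 1 bar per library, coloured by salinity group. SD30 replicates 1 and 2 have the lowest bars on the left (1.39% and 1.27%) and the highest on the right (66.0% and 75.4%).

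The same libraries set how steady these transcripts look in units relative to the library total. The median FPKM of the 200 was 79.8, 85.5 and 91.5 at low salinity, 37.0, 31.6 and 82.3 in the controls and 66.7, 65.7 and 78.8 at high salinity. For AJAP11296, which varied by 10.4% in scaled counts, the deposited FPKM ranged from 61.8 to 176. With libraries scaled to their totals, the median CV of the 200 was 35.8% in place of 22.1%, and with edgeR's TMM factors it was 21.8%. The mean of SD20 over that of SD30 had a median of 0.926 with size factors, 0.941 with TMM and 1.70 with library totals, where all 200 transcripts were higher in SD20. For SD40 over SD30 these medians were 0.980, 1.01 and 1.42, with 197 of 200 higher in SD40 by totals. Without SD30 replicates 1 and 2, the median CV of the 200 over the remaining 7 libraries was 21.4% by size factors and 21.3% by totals. Against the lone control library left, SD30 replicate 3, the median ratio was 0.909 for SD20 and 0.990 for SD40 by size factors, and 1.05 and 0.887 by totals.

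With size factors, the group means of the stable transcripts lay close together. The ratio of the highest to the lowest of the 3 group means had a median of 1.24 and a range of 1.02 to 1.75. It was under 1.1 for 22 transcripts, under 1.2 for 82 and under 1.5 for 179 of the 200. Among the 869 eligible transcripts not chosen it was under 1.2 for 51, with a median of 1.75. These differences follow from the choice. The share of a transcript's own variation that lay between the groups, rather than between libraries of a group, had a median of 23.8% in the stable transcripts and 31.6% in the others. Groups without any effect of salinity also give a share of this kind, so neither median is read as an effect of salinity. Which group had the lowest mean depended on the scaling. With size factors it was SD20, SD30 and SD40 for 98, 51 and 51 of the 200, and the highest mean lay in these groups for 46, 87 and 67. The lowest means were split 99, 59 and 42 with TMM, 74, 62 and 64 with libraries scaled by the 200 themselves, and 0, 197 and 3 with library totals. Without SD30 replicates 1 and 2 they were split 93, 55 and 52 with size factors and 21, 55 and 124 with totals.

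The comparisons between salinities were fitted over all 14191 tested genes with edgeR's quasi-likelihood test, all 9 libraries in 1 fit. No stable transcript passed the adjusted threshold of 0.05 in SD20 against SD30 (0 of 200, lowest adjusted p = 0.425), in SD40 against SD30 (0 of 200, lowest adjusted p = 0.770) or in SD40 against SD20 (0 of 200, lowest adjusted p = 0.769). Over all tested genes the percentage called was 0%, 0% and 0.00705%. DESeq2 also called 0 of the 200 in each comparison, where it called 2.50%, 0.250% and 0.544% of the genes it tested. Without SD30 replicates 1 and 2, where the lone control is taken to vary like the other groups, both tools again called 0 of the 200 in each comparison. Of all genes edgeR then called 0%, 0% and 0%, and DESeq2 0.297%, 0.212% and 0.820%. At an unadjusted p under 0.05 edgeR gave 0, 1 and 0 of the 200, where 12.2%, 6.30% and 6.44% of tested genes met this limit. The choice by small CV used these contrasts, so nothing is read from these counts. The absolute log2 fold change had a median of 0.18, 0.16 and 0.18 in the stable transcripts, against 0.72, 0.56 and 0.54 over all tested genes. The median SE of a stable transcript was 0.37, 0.37 and 0.37, so the fit leaves room for changes beyond the observed differences.

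Groups were also compared library by library, by counting transcripts whose groups did not overlap. All 3 SD20 libraries lay above all SD30 libraries for 8 of the 200 and below them for 29, while 12.6% of all tested genes were higher and 9.46% lower in this way. For SD40 against SD30 the counts were 8 higher and 9 lower, beside 5.07% and 4.28% of tested genes. For SD40 against SD20 they were 14 higher and 6 lower, beside 6.52% and 6.69%. In both directions together the counts were 37, 17 and 20 of 200 (18.5%, 8.5% and 10%), where 22.1%, 9.35% and 13.2% of all tested genes did not overlap. No result about the stable transcripts is read from these counts. The first 2 comparisons share the SD30 libraries, and the choice used all of them.

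Scaling to library totals changed these counts. For SD20 against SD30 they became 61 higher and 0 lower (beside 29.5% and 1.35%), for SD40 against SD30 21 higher and 0 lower (beside 11.4% and 0.803%), and for SD40 against SD20 3 higher and 43 lower (beside 2.85% and 13.4%). The larger count for SD40 against SD20 thereby passed from higher to lower. Set against SD30 replicate 3 alone, all SD20 libraries stood apart for 34 higher and 84 lower (beside 28.5% and 25.7%) of the 200 by size factors and for 61 higher and 37 lower (beside 35.8% and 18.8%) by totals. For SD40 these counts were 42 higher and 38 lower (beside 21.0% and 20.1%) by size factors and 21 higher and 72 lower (beside 17.5% and 25.4%) by totals.

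The stable transcripts with the widest separation of group means show how much room the choice left. AJAP07175, of 510 bases, had the lowest ratio of SD20 to SD30, 0.608. Its scaled counts were 122, 126 and 126 at low salinity, 222, 214 and 179 in the controls and 156, 124 and 186 at high salinity, so the SD20 libraries were nearly equal and all below the controls, and its fitted log2 fold change was -0.67 (SE 0.33). AJAP18020, of 6702 bases, had the highest such ratio, 1.55. It stood at 411, 248 and 468 at low salinity, 243, 227 and 255 in the controls and 336, 301 and 394 at high salinity, where SD20 replicate 2 overlapped the controls and the SD40 libraries lay above them.

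For SD40 over SD30 the highest ratio, 1.75, belonged to AJAP09715, of 3516 bases. Its values were 145, 163 and 196 at low salinity, 109.8, 131 and 115 in the controls and 201, 183 and 237 at high salinity, lowest in the controls and highest in SD40, with a fitted log2 fold change of 0.85 (SE 0.33). The control libraries lay below all libraries of both other groups. The lowest ratio, 0.664, was that of AJAP01116, of 1038 bases, with 264, 246 and 295 at low salinity, 402, 288 and 320.0 in the controls and 227, 208 and 236 at high salinity. Here SD40 lay below every other library and SD30 replicate 1 was the highest. AJAP18020, AJAP09715 and AJAP01116 did not have whole counts in every library.

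Between the extremes of salinity, AJAP08576, of 1218 bases, had the highest ratio of SD40 to SD20, 1.64, at 179, 148 and 153 at low salinity, 265, 191 and 237 in the controls and 257, 276 and 253 at high salinity. All SD20 libraries lay below all others, and SD30 overlapped SD40. AJAP01012, of 2721 bases, had the lowest, 0.578, at 489.9, 466 and 497 at low salinity, 391, 368 and 280.0 in the controls and 336, 227 and 278 at high salinity. Its SD20 libraries were the 3 highest of the 9, and its group means fell in the order of salinity from 484 ± 16.5 to 346 ± 58.7 and 280.1 ± 54.5 (SD, n = 3 each), with SD30 and SD40 overlapping. These 6 transcripts were named for their ratios, which are descriptions, and none passed the adjusted threshold of edgeR's quasi-likelihood test.

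Steadiness was then read in libraries that took no part in the choice. The same rule was applied to 8 libraries at a time, and the 200 transcripts found were read in the ninth as the log2 ratio of that library to the mean of the 8, with size factors from all 9 libraries. The median absolute ratio was 0.217, 0.243 and 0.341 when SD20 replicates 1, 2 and 3 were held out in turn. It was 0.339, 0.344 and 0.265 for the SD30 replicates and 0.375, 0.300 and 0.407 for the SD40 replicates. The other eligible transcripts gave 0.394 to 0.655 in the same libraries. In each of the 9 libraries the chosen transcripts deviated less than the others, with means of 0.314 ± 0.0630 and 0.514 ± 0.0937 (SD over 9 libraries, which share the libraries used for the choice). Between 138 and 181 of the 200 lay within 1.5-fold in the held-out library, and single transcripts reached log2 ratios of -3.49 and 2.14.

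The same reading was made for whole groups, with transcripts chosen on the 6 libraries of 2 salinities and read in the remaining one. Chosen without SD20, the transcripts had a median absolute log2 ratio of 0.293 in SD20, where the other eligible transcripts had 0.549. For SD30 the values were 0.270 and 0.432, and for SD40 0.195 and 0.298. Within 1.5-fold lay 154 of 200 in SD20, 157 in SD30 and 185 in SD40, against 53.4%, 64.4% and 78.1% of the others. SD20 held the chosen transcripts below their level elsewhere, with a signed median of -0.21, and the others lower still, at -0.51. This sign turned with library totals, to 0.13 and 0.13. With libraries scaled to their totals, the chosen transcripts deviated less than the others in 2 of 3 groups and in 9 of 9 libraries, and more than the others in the SD40 group (0.321 against 0.313). With SD30 replicates 1 and 2 left out of the choice and of the reading (library scalings unchanged), the chosen transcripts deviated less than the others in each of the 7 libraries, at 0.223 to 0.431 against 0.356 to 0.637 by size factors and 0.254 to 0.391 against 0.351 to 0.575 by totals. In the SD20 group they then stood at 0.310 against 0.475 by size factors and 0.287 against 0.355 by totals, and in SD40 at 0.331 against 0.413 and 0.320 against 0.398. The chosen transcripts had a lower level than the others, and the part of level in this difference was not tested.

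**Figure D4:**
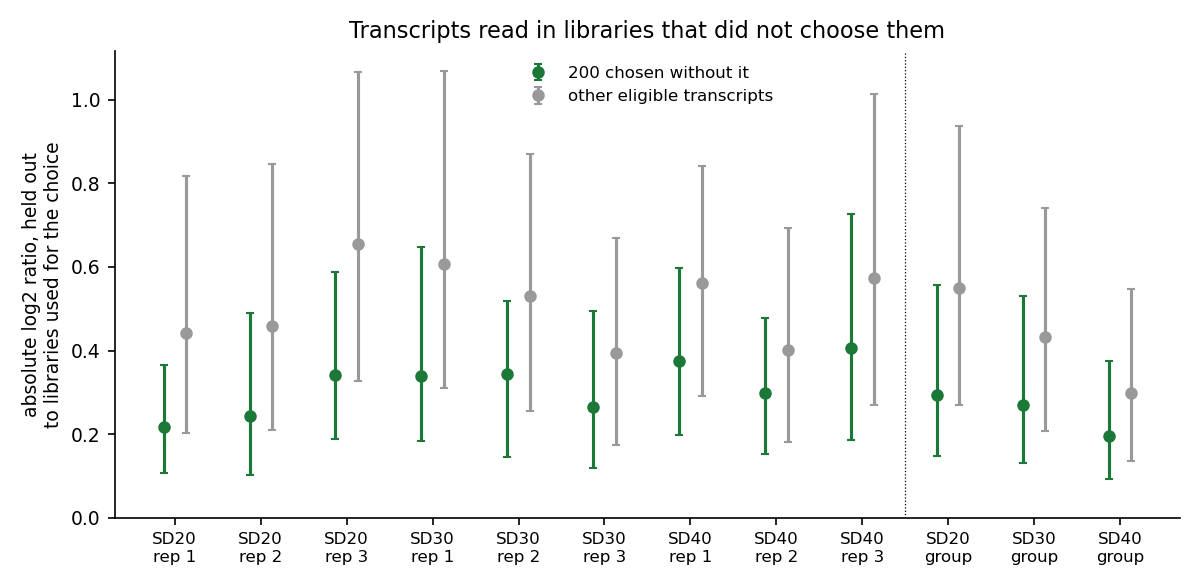
Absolute log2 ratio of a held-out library (9 positions on the left) or salinity group (3 on the right) to the mean of the libraries used for the choice. Points are medians and bars span the middle 50% of transcripts, green for the 200 chosen without the held-out libraries and grey for the other eligible transcripts. The green median lies below the grey one at all 12 positions.

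A panel of the 10 steadiest transcripts, as would be used for a normalizing factor, was read in the same way, an addition made after the data were seen. Chosen on 8 libraries, the geometric mean of the 10 in the ninth had a log2 ratio to its level in the 8 of -0.066 to 0.33 in every library but one. In SD40 replicate 1 it was -0.50. The 10 steadiest differed between choices, with 4 to 9 of 10 in common with those of all 9 libraries, and 3, 1 and 5 in common when SD20, SD30 or SD40 was left out whole. Of the 200, 129 were chosen again in each of the 9 choices without 1 library, and 63 also in each of the 3 choices without 1 group. All 10 of the steadiest named above belonged to these 63, whose CVs reached up to 22.5%. Each of these choices reused libraries that had chosen the 200, so the return of a transcript is a description. The CVs of the 10 reached only 14.5%, against 27.3% for the last of the 200, so nothing is read from their return.

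In some libraries the deviations of the stable transcripts went with gene model length, and the cause was not tested. The 200 were divided into 67 short (234 to 873 bases), 66 middle (882 to 1734 bases) and 67 long gene models (1740 to 13386 bases), a division made after the data were seen. In SD40 replicate 1 the median log2 deviation from a transcript's own mean was -0.30 for the short and 0.071 for the long class. In SD20 replicate 3 it was -0.24 and -0.052, and in SD40 replicate 3 it was 0.36 and 0.15. Spearman's rho between length and deviation over the 200 was 0.0939, -0.0843 and 0.358 at low salinity, -0.0519, -0.145 and -0.252 in the controls and 0.463, -0.270 and -0.192 at high salinity. Over the 1069 eligible genes it ran from -0.198 to 0.292, with the highest values in the same 2 libraries, SD40 replicate 1 and SD20 replicate 3. SD40 held both the highest and the lowest rho of the 9 libraries. These are correlations across transcripts that share a library, so they describe the libraries.

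**Figure D5:**
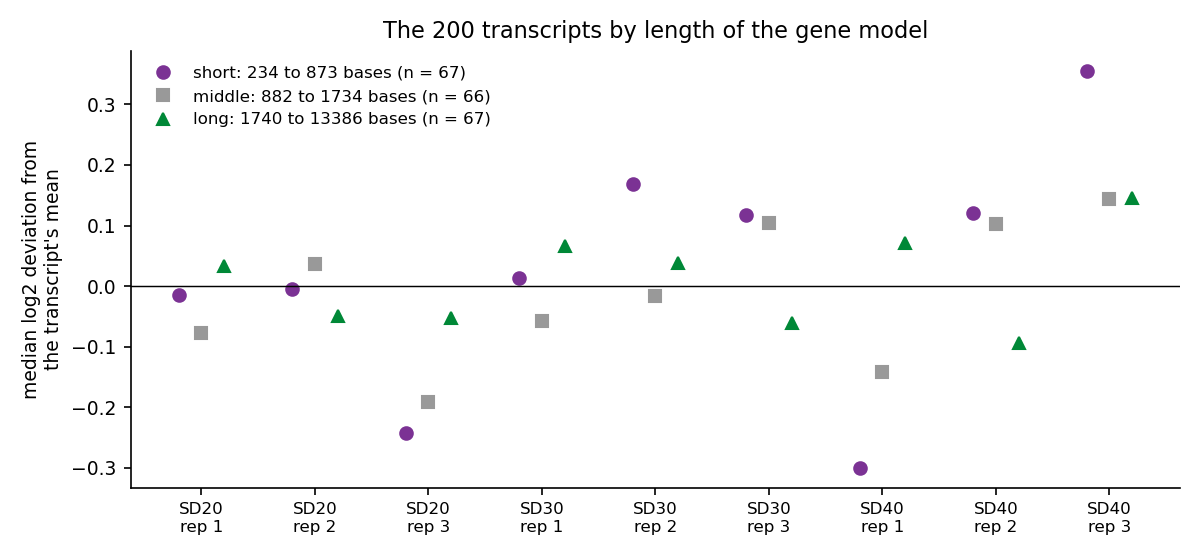
Median log2 deviation of the stable transcripts from their own mean over 9 libraries, by library and by class of gene model length (circles short, squares middle, triangles long; class limits in bases in the key). The short class runs from -0.30 in SD40 replicate 1 to 0.36 in SD40 replicate 3, and the long class from -0.093 to 0.15.

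The stable transcripts as a whole also moved a little against the size factors. SD40 replicate 3 was the highest of the 9 libraries for 56 of the 200 and the lowest for 9. SD20 replicate 3 was the lowest for 37 and SD40 replicate 1 for 36. These counts were not set beside those of all eligible genes, and nothing is read from them. The median log2 deviation of the 200 ranged from -0.16 in SD20 replicate 3 to 0.20 in SD40 replicate 3. Over the 1069 eligible genes it ran from -0.31 to 0.31 in the same libraries. The shift was thus not particular to the stable transcripts. A measure that needs no library scaling was therefore added, the geNorm M value, which is the mean SD over libraries of the log2 ratio of a transcript to each other eligible transcript. M was 0.596 to 0.854 in the stable transcripts, with a median of 0.667, and 0.620 to 2.03 with a median of 0.831 in the others. Of the 200 lowest M values, 109 belonged to stable transcripts, among them all 10 of the steadiest by CV. M was computed on the same 9 libraries that chose the transcripts, so this overlap is a description. Over the 1069 eligible genes Spearman's rho between CV and M was 0.824. AJAP15467, of 1677 bases, had the lowest M of the stable transcripts, 0.596, with a CV of 17.0% and scaled counts of 122, 126 and 114 at low salinity, 151, 187 and 144 in the controls and 113, 132 and 147 at high salinity. AJAP00503 followed with 0.597, and was 2nd by CV as well. The group mean of AJAP15467 was lowest at low salinity, 121 ± 6.01, beside 161 ± 23.2 in the controls and 131 ± 17.0 at high salinity (SD, n = 3 libraries a group), and every control exceeded every SD20 library.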

How the data were processed

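Per the file headers, the authors deposited estimated counts by gene model for every library, with up to 2 decimals and no normalization, together with model lengths and FPKM values. Per the submitters' processing notes CASAVA 1.5 was used. The sources used here do not name the aligner, the counting tool, the genome or the gene set. A gene without a line in a file was set to 0. Each comparison rests on 3 pools per group of 3 animals each, per the labels' protocols.

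Scaled counts, CVs, held-out readings and geNorm M were computed in Python 3.11.15 with pandas 2.3.3 and numpy 2.4.6. Rounded counts were fitted with edgeR 4.0.16 in R 4.3.3 (filterByExpr, TMM, robust quasi-likelihood test, salinity group as the only term, Benjamini-Hochberg over all 14191 genes), with DESeq2 1.42.0 as an alternative. The choice rule and the fit were run on simulated data as a check of the code. The simulated steady genes were set apart from the rest. That check therefore does not bear on the continuous range of CVs here. The SE of a log2 fold change is its size over the square root of F. The 200 members, the named genes (smallest CV, at the limit, extremes of level, length, group ratio and M) and the tests were chosen with earlier results of these data known. No sequence of these gene models was used here.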

Additional observations from a re-analysis of the deposited data

How the results depend on the processing

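Which transcripts count as the 200 steadiest depended most on the scaling and the floor. Given as the number shared with the 200, with the median CV of the new 200, the results were 41 (26.9%) with library totals, 58 (17.3%), 101 (19.1%) and 88 (28.2%) with floors of 10, 50 and 200, and 107 (26.1%) with the median absolute deviation over the median. They were 138 (19.6%), 117 (18.2%) and 123 (18.2%) without SD20, SD30 or SD40, and 126 (19.1%) without SD30 replicates 1 and 2, an alternative added after seeing the data. With library totals and without these 2 libraries, 89 were shared. The 200 lowest M values shared 109. TMM factors shared 192, the SD of log2 values 187, the CV beyond counting variance 199 and keeping the 100 most abundant 198. The authors' FPKM with its own size factors shared 200 and whole counts only 146, but both outcomes were fixed in advance. FPKM differs from counts by a gene's length and a library constant, which drop out of the CV after scaling. The 146 are the stable transcripts with whole counts in all 9 libraries. Leaving out each library in turn shared 156 to 187, with median CVs of 20.6% to 22.3%. The mean held-out deviation was 0.408 (libraries) and 0.371 (groups) with library totals, and 0.383 and 0.340 with a floor of 200. A lower floor admits more genes to the choice. The cause of the other changes was not tested.

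Ratios of group means changed side with library totals, to medians of 1.70, 1.42 and 0.840 for SD20 over SD30, SD40 over SD30 and SD40 over SD20. SD40 over SD30 also did with TMM (1.01), and over the libraries left out it ran from 0.936 to 1.05, above 1 only without SD40 replicate 1. Over all tested genes edgeR called 0, 0 and 1 genes in these 3 comparisons (SD40 against SD20 last), DESeq2 349, 35 and 76, and no filter on low counts 0, 1 and 1. With library totals, and with any 1 library left out (0 to 0), the count was 0 in all 3. With library totals, 33 of the 200 had an unadjusted p under 0.05 in edgeR for SD20 against SD30, where the reported fit had 0. Under library totals 2635 of the 14191 tested genes met this limit, so nothing about the stable transcripts is read from the 33. Without SD30 replicates 1 and 2, added after seeing the data, edgeR called 0 genes in all 3 and DESeq2 42, 30 and 116. Of the 28 named transcripts, 25 had a CV under library totals that moved beyond its error. With 1 library left out, CVs also moved beyond their error. This held for 1 of the 28 without SD20 replicate 3, 2 without SD30 replicate 1 and 1 without SD30 replicate 2. It held for 1 without SD40 replicate 1 and 4 without SD40 replicate 3. The CVs of 3 of these moved by over 1.5 times: AJAP11296 to 5.81% without SD40 replicate 1, AJAP13529 to 13.8% without SD40 replicate 3 and AJAP16239 to 10.1% without SD20 replicate 3. The replicate number as a block gave 0 calls in all 3 comparisons. Same-numbered libraries of different groups had deviations with correlations from -0.103 to 0.200. Differently numbered ones ran from -0.277 to 0.238. These ranges overlap, so they cannot decide whether the numbers pair the libraries. With 54.0 to 167 counts for the lowest of the 200 in each library, depth limits the smallest CV that can be seen.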
